A study of Drosophila melanogaster with 62 samples.

Results

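Dosage compensation in Drosophila is the process by which the single X chromosome of males is transcribed at a higher rate. It is carried out by the male-specific lethal (MSL) complex, in which MSL1 is the scaffold, MSL2 is a ubiquitin ligase made in males, MSL3 is a chromodomain protein, MLE is an RNA helicase and MOF is the acetyltransferase that places acetyl groups on lysine 16 of histone H4. The complex carries a noncoding RNA, roX1 or roX2, and in females the RNA-binding protein Sxl keeps msl-2 RNA from being translated. The genes described here are the 7 that encode these components, msl-1, msl-2, msl-3, mle, mof, roX1 and roX2. They were taken by name, not by any measured value, and all 7 were found among 17753 annotated genes of the deposited tables.

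The samples were Drosophila melanogaster embryos with a knockdown of 1 of 6 enzymes that add acetyl groups to histones or remove them. The acetyltransferases were Nejire, which is CBP in other animals, Gcn5 and Enok, and the deacetylases were HDAC1, HDAC3 and HDAC6. Embryos were taken at stage 2, when nuclei divide in the early cleavage cycles and nearly all RNA is maternal, and at stage 5, when the blastoderm forms cells and the zygotic genome is transcribed. Nejire, Gcn5, HDAC1 and HDAC3 knockdowns shared controls (here the main set), while Enok and HDAC6 knockdowns had controls in a second set that the labels call batch1. The control embryos came from the cross T180xN174, and the knockdowns from crosses of N174 with NI715 (Nejire), T400 (Gcn5), T341 (HDAC1), T103 (HDAC3), T337 (Enok) and T344 (HDAC6). Knockdown and parent line therefore cannot be told apart. The batch1 controls pooled embryos named Ctrl-KD and CtrlAc-KD. Rescue embryos at stage 5 carried a knockdown of Nejire together with wild type or catalytic dead Nejire (T6xN546 and T6xN547), or a knockdown of Gcn5 together with wild type or catalytic dead Gcn5 (400x540 and 400x541). Nuclear RNA with ERCC spike-in transcripts was sequenced from Nejire knockdown embryos and from controls whose library names say WT. The labels name neither the driver of the knockdown nor the sex of the pooled embryos.

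The 62 libraries formed 22 groups of 2 to 4 libraries, of 20 embryos each for total RNA and 300 embryos each for nuclear RNA. Total counts ran from 2.45 to 40.4 M over 56 total RNA libraries and from 14.8 to 20.7 M over 6 nuclear libraries. The 6 patterning genes that mark stage 5 (ftz, eve, Kr, kni, sna and twi) summed to at most 1.13 counts per M (CPM) in every stage 2 library and to at least 163 CPM in every stage 5 library. The HDAC6 knockdown library that is stage 5 by title and stage 2 in another field summed to the stage 5 range (732 to 814 CPM over both HDAC6 libraries). Each targeted gene fell in its own knockdown at both stages, from HDAC6 at stage 5 (log2 fold change -1.48) to Gcn5 at stage 2 (-9.74), except HDAC3, which had 0 counts in every library and could not be checked. Other targeted genes fell beside it in Gcn5 knockdown (HDAC6, enok and nej at both stages) and at stage 5 in HDAC1 (Gcn5, HDAC6, enok and nej) and HDAC3 knockdown (HDAC6). In nuclear RNA the change of nej was -2.45 and did not pass (adjusted p = 0.0637).

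The genes lie on 3 autosomal arms and on the X chromosome (coordinates of build dm6, Ensembl release 115). msl-1 (FBgn0005617) is on 2L from 18683720 to 18688800 on the minus strand, and msl-2 (FBgn0005616) on 2L from 3462218 to 3466112 on the minus strand. msl-3 (FBgn0002775) is on 3L from 7123213 to 7125533 on the minus strand, and mle (FBgn0002774) on 2R from 5974857 to 5980778 on the minus strand. mof (FBgn0014340) is on X from 5873840 to 5876853 on the minus strand. roX1 (annotated as lncRNA:roX1, FBgn0019661) is on X from 3857230 to 3862697 on the minus strand, and roX2 (lncRNA:roX2, FBgn0019660) on X from 11579065 to 11580432 on the plus strand. The first 5 are protein coding and both roX genes are noncoding. roX1 shares 7.17% of its exon bases with the gene ec on the opposite strand, and msl-3 shares 4.31% with form3. The sources used here do not say whether counting used strand, so the shared bases of these pairs cannot be told apart.

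Control embryos were compared first between the stages, to see which components the mother supplies as RNA and which appear with zygotic transcription. At stage 2 the RNA of msl-1, msl-3, mle and mof was present, msl-2 was low, and both roX RNAs were at or near 0. At stage 5 msl-2, mle, mof, roX1 and roX2 had risen, by log2 values from 0.90 to 15.30 in the main set. Values below are CPM on 1 TMM scale for the total RNA libraries of both stages, given for replicates in order, and each fold change comes from a fit of its own comparison with edgeR's quasi-likelihood test. The fits between stages have TMM scales of their own, on which a log2 change is higher than that between the printed levels, by 0.25 in the main set and 0.36 in batch1. Changes are log2 fold change ± a standard error worked back from the p-value. A gene is said to have risen or fallen where the p adjusted over all genes tested was under 0.05.

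msl-2, the member that limits assembly of the complex to males, was at 4.80, 5.66 and 7.31 CPM in stage 2 controls of the main set. At stage 5 it was at 132, 177 and 139.6 CPM. All stage 5 libraries lay far above all stage 2 libraries, and the rise was 4.88 ± 0.80 (adjusted p = 4.15e-08). In batch1 it was at 7.81, 7.22 and 7.14 CPM against 206, 220.0, 197 and 169 CPM, a rise of 5.11 ± 0.65 (adjusted p = 2.87e-13). The ratio of its counts between stages was 25.3 in the main set and 27.2 in batch1.

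roX1, the noncoding RNA that is the first of the pair to appear in the embryo, had 1 count over all 3 stage 2 controls of the main set and 2 counts over all 3 of batch1. At stage 5 its level was 1222, 1317 and 1149 CPM in the main set and 1997, 1873, 2029 and 1767 CPM in batch1. The groups did not come near each other, and roX1 held the highest level per length of the 7 genes at stage 5. The ratio was 5.39e+04 (95% interval 9.67e+03 to 2.13e+06, counting error only) in the main set and 2.27e+04 (6.28e+03 to 1.87e+05) in batch1. The fitted changes were 15.30 ± 2.16 (adjusted p = 4.21e-09) and 14.54 ± 1.71 (adjusted p = 1.59e-14), and their size depends on how counts near 0 are treated.

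roX2, which serves the complex in place of roX1, had 0 counts in all 22 stage 2 libraries. A count of 0 allows a level of up to 0.0789 CPM in the deepest of them and 1.11 CPM in the shallowest. At stage 5 it was at 1.69, 3.84 and 1.54 CPM in main controls and at 6.16, 3.85, 8.10 and 5.86 CPM in batch1 controls. Against a floor of 3 counts over the stage 2 group this is at least 39-fold higher in the main set and at least 52.3-fold higher in batch1. It passed in both sets (adjusted p = 0.000131 and 3.8e-07), with the 3 main libraries holding 10, 32 and 4 counts, so its level is known only roughly.

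mle was at 42.4, 46.8 and 47.9 CPM at stage 2 and at 92.0, 85.5 and 77.9 CPM at stage 5 of the main set, without overlap. It rose by 1.15 ± 0.25 (adjusted p = 1.34e-05), and by 1.51 ± 0.26 (adjusted p = 2.06e-08) in batch1. mof rose from 183, 203 and 182 CPM to 282, 326 and 281 CPM, again without overlap. Its rise was 0.90 ± 0.21 (adjusted p = 5.28e-05) in the main set and 0.83 ± 0.17 (adjusted p = 2.34e-06) in batch1.

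msl-1 and msl-3, like mof, had high RNA already at stage 2. msl-1 was at 503, 532 and 498 CPM at stage 2 and at 569.7, 512 and 427 CPM at stage 5 of the main set, where the groups overlapped. Its direction there depended on the scale, with means of 511 and 503 CPM at stages 2 and 5 on the common scale and of 459 and 537 CPM on that of the fit. The fitted change of 0.23 ± 0.14 did not pass (adjusted p = 0.124), but did without stage 5 control replicate 3 (0.37, adjusted p = 0.0169). In batch1 msl-1 was at 481, 507 and 486 CPM at stage 2 and at 315, 301, 321 and 276 CPM at stage 5, without overlap. On the scale of the fit it fell from 424 to 336 CPM, by 0.33 ± 0.10 on the log2 scale (adjusted p = 0.00143). msl-3 changed by -0.19 ± 0.11 (adjusted p = 0.0987) in the main set, which passed with scaling to stable genes (-0.27, adjusted p = 0.0277), and fell by 0.45 ± 0.13 (adjusted p = 0.000957) in batch1. In all, 5 of 7 members rose in the main set, where 79.8% of 7428 genes tested changed in either direction. In batch1, 5 rose and 2 fell, beside 87.2% of 7872 genes. These shares are high throughout the transcriptome, and the count of members called does not set them apart. In bulk RNA, fewer cells of a type and less RNA per cell cannot be told apart.

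**Figure D1:**
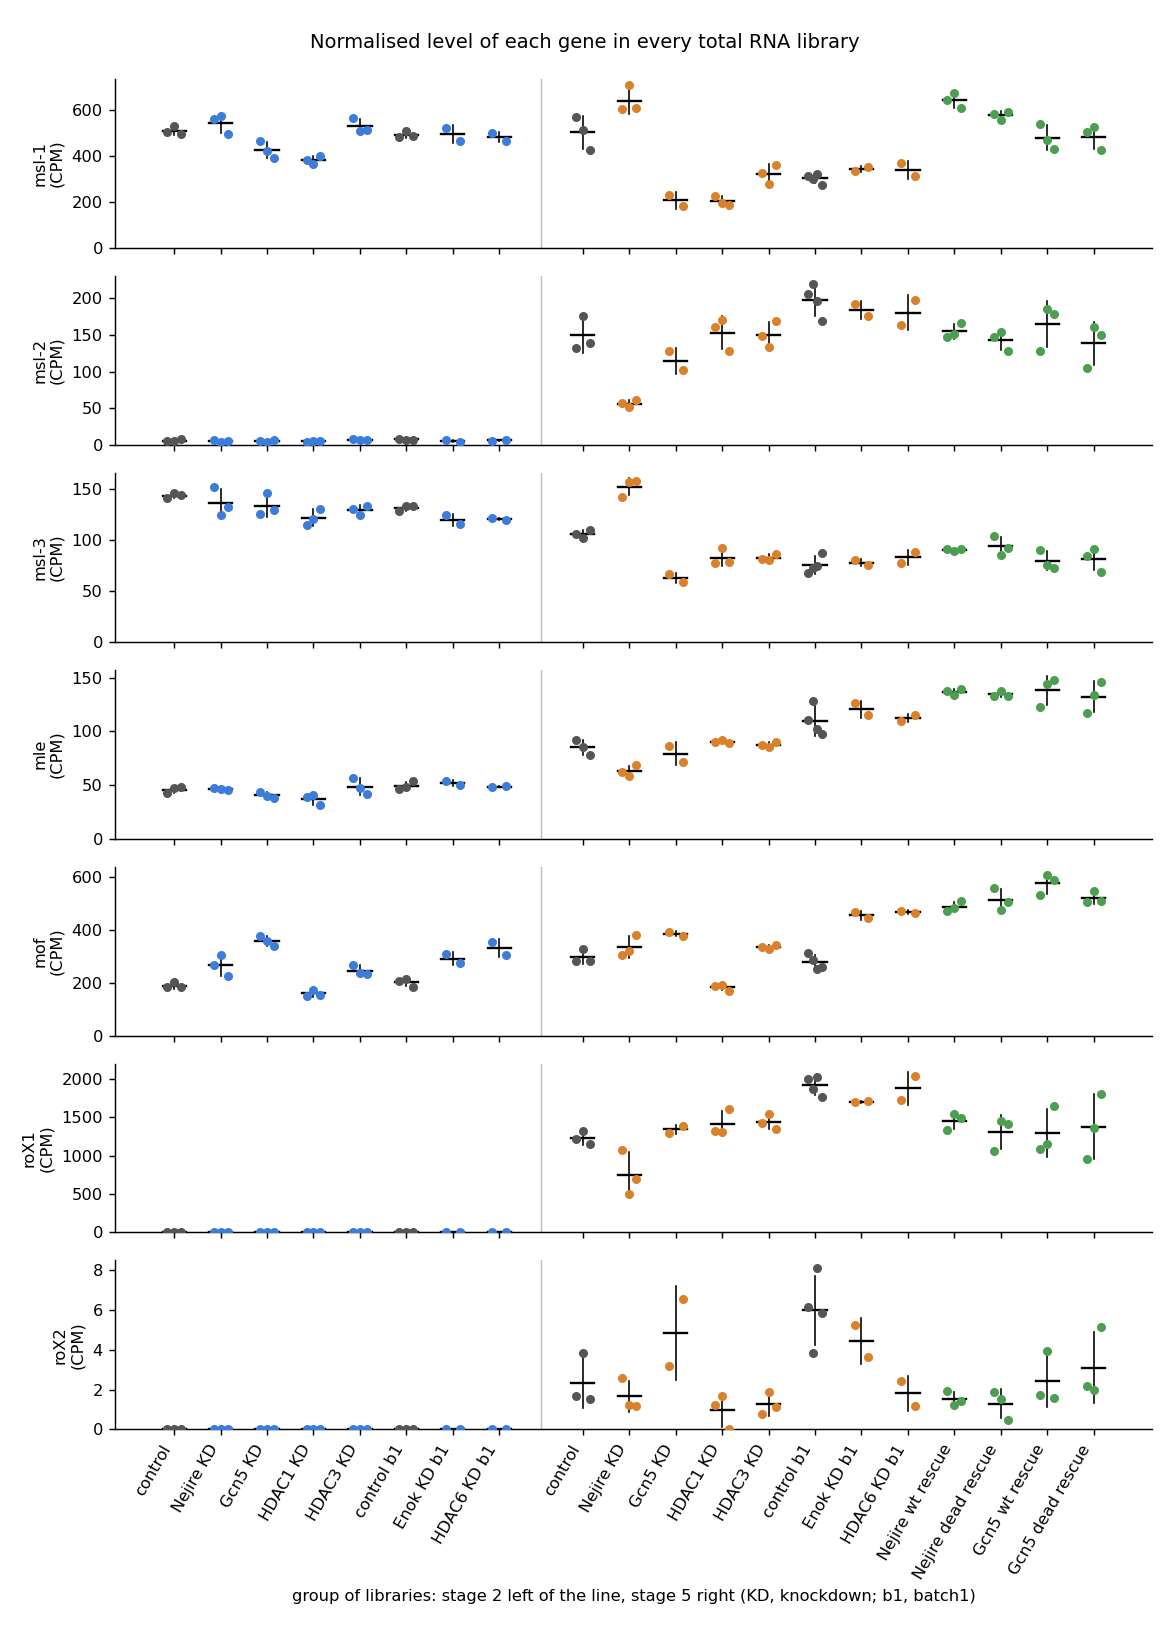
Level of each gene (CPM, linear axis from 0) in every total RNA library, by group, with stage 2 groups left and stage 5 groups right of the line. Points are libraries, horizontal lines are group means and vertical lines are ± SD. msl-2, roX1 and roX2 are near 0 at stage 2, msl-2 is lowest at stage 5 in Nejire knockdown (51.1 to 60.9 CPM), and mof in HDAC1 knockdown (169 to 190.0 CPM) lies below every other stage 5 group.

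Levels of different genes were compared per kb of exon. At stage 2 in the main set the order was msl-1 (102 CPM per kb), msl-3 (72.9), mof (62.8), mle (9.85), msl-2 (1.54), roX1 and roX2. At stage 5 it was roX1 (225 CPM per kb), msl-1 (100.2), mof (98.3), msl-3 (53.7), msl-2 (38.9), mle (18.3) and roX2 (1.72). There msl-1 and mof differed by less than their SD (14.3 and 8.48). In batch1 at stage 5 the order was roX1 (350.5 CPM per kb), mof (92.2), msl-1 (60.4), msl-2 (51.5), msl-3 (38.4), mle (23.6) and roX2 (4.38). At stage 5 the RNA of msl-1 and msl-3 was lower, and that of mle, roX1 and roX2 higher, in batch1 controls than in main controls. Libraries did not overlap for these genes, for roX2 only narrowly (3.85 CPM against 3.84 CPM), but did for msl-2 and mof. How many of all genes were apart in this way was not counted. The labels of both sets give the same cross and stage, but libraries named CtrlAc-KD are in batch1 only. The maternal marker RNAs dhd, exu, bcd and nanos summed to 76.5 to 121.5 CPM in batch1 controls against 176 to 281 CPM in main controls. Their part in the difference between the sets was not tested.

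The other genes of the pathway were read from lists written from general knowledge. Of 5 regulators of msl-2 RNA or translation (Sxl, Unr, how, Hrb27C and pAbp), 5 rose between the stages in the main set and 4 in batch1. Sxl, the switch gene of sex determination, rose from 193 to 396 CPM in the main set (1.04 ± 0.26, adjusted p = 0.000122) and from 193 to 741 CPM in batch1 (1.94 ± 0.29, adjusted p = 1.36e-10). how, an RNA-binding protein that acts with Sxl on msl-2, rose by 1.33 and 2.09. Of 8 partners in targeting or function (Clamp, JIL-1, Top2, Mgtor, Nup153, Set2, Su(var)3-7 and Zn72D), 5 rose and 1 fell in the main set, and 4 rose and 4 fell in batch1. Top2, a topoisomerase, rose by 1.25 in the main set and 1.54 in batch1. Zn72D, which acts on maturation of mle RNA, fell by 0.92 on the log2 scale in the main set, and Mgtor, the nuclear pore protein Megator, rose by 1.47 in batch1. Of 8 genes of the NSL complex, the other complex that holds MOF, 5 rose and 1 fell in the main set and 4 rose and 2 fell in batch1. Its members pzg (1.01 and 1.16) and Chro (0.90 and 1.06) had the lowest adjusted p in both sets. The median change of all genes tested was 0.15 in the main set and 0.27 in batch1, and that of the 3 lists ran from 0.15 to 1.04.

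Knockdown of Nejire was then compared with its controls at stage 5. msl-2, roX1 and mle fell and msl-3 and msl-1 rose, so that 5 of 7 members changed, beside 37.9% of 8236 genes tested. msl-2 had the largest change of the 7, to less than its level in any other stage 5 group of total RNA. The 6 stage 5 marker genes fell as well, by log2 values from 1.33 (kni) to 2.38 (eve), and summed to 163 to 254 CPM against 728 to 866 CPM in controls. Of the 4 maternal markers 3 rose (dhd, bcd and nanos), and their sum was 308.5 to 386 CPM against 176 to 281 CPM. The part of these shifts in the members' changes was not tested.

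msl-2 was at 57.1, 51.1 and 60.9 CPM in Nejire knockdown against 132, 177 and 139.6 CPM in controls. The highest knockdown library lay below the lowest control library by more than the spread of either group. msl-2 fell by 1.40 ± 0.25 on the log2 scale (adjusted p = 3.83e-07), and by 1.26 to 1.58 under the 12 alternatives run. At stage 2, where it is low, it was at 6.97, 3.66 and 5.67 CPM against 4.80, 5.66 and 7.31 CPM, a change of -0.12 ± 0.23 (adjusted p = 0.798). The effect at stage 5 minus that at stage 2 was -1.28 ± 0.31 (adjusted p = 0.0009).

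roX1 was at 1072, 496 and 693 CPM in Nejire knockdown against 1222, 1317 and 1149 CPM in controls. The groups did not overlap, but the first knockdown library came close to the lowest control. roX1 fell by 0.70 ± 0.22 (adjusted p = 0.00697), and by 0.47 to 1.04 under the alternatives, all of them past the threshold. roX2 was at 2.58, 1.25 and 1.16 CPM against 1.69, 3.84 and 1.54 CPM, with overlap, and its change of -0.52 ± 0.61 did not pass (adjusted p = 0.518).

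mle was at 62.3, 58.1 and 68.3 CPM against 92.0, 85.5 and 77.9 CPM and fell by 0.44 ± 0.13 (adjusted p = 0.00495). msl-3 was at 142, 157 and 158 CPM against 106, 102 and 109.9 CPM, without overlap, and rose by 0.53 ± 0.13 (adjusted p = 0.000445). msl-1 was at 604, 709 and 609 CPM against 569.7, 512 and 427 CPM. Its rise of 0.35 ± 0.15 was at the threshold (adjusted p = 0.0467), and it did not pass when any of 5 of the 6 libraries was left out (adjusted p from 0.0548 to 0.189) nor with scaling to stably expressed genes (0.17, adjusted p = 0.323). That scaling moved the median of all genes by -0.175 in this comparison, and the genes called from 1324 higher and 1800 lower to 663 higher and 2424 lower. mof, at 305, 319.9 and 380.0 CPM against 282, 326 and 281 CPM, overlapped with controls and changed by 0.18 ± 0.11 (adjusted p = 0.168).

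Among the other genes of the pathway, Sxl had the largest change in Nejire knockdown at stage 5. It fell from 393 to 73.4 CPM (-2.39 ± 0.49, adjusted p = 1.45e-05), and how fell by 0.42 ± 0.13 on the log2 scale (adjusted p = 0.0072), the other 3 regulators of msl-2 not passing. Of the partners 1 rose and 3 fell, led by Zn72D (-0.70 ± 0.16, adjusted p = 7.51e-05) and Clamp (0.43 ± 0.14, adjusted p = 0.00742), the zinc finger protein that binds the sites where the complex enters the X chromosome. Of the NSL genes MBD-R2 fell (-1.23 ± 0.29, adjusted p = 0.00024) and dgt1 rose (0.40 ± 0.12, adjusted p = 0.00541). The medians of the 3 lists were -0.21, -0.15 and -0.02, beside 0.01 for all genes.

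Nuclear RNA of Nejire knockdown at stage 5 was sequenced with a spike-in, which serves as a scale that does not depend on fly RNA. On that scale roX2 was the member that passed, 1 of 7, beside 13.4% of 9295 genes tested. The spike-in itself differed within the knockdown group, with 282, 284 and 69.5 ERCC counts per M fly counts against 98.5, 100 and 134 in controls. The third knockdown library therefore stood above the other two for every member.

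roX2 was at 0.766, 1.77 and 4.04 CPM in the nuclear knockdown libraries against 15.0, 16.6 and 12.1 CPM in controls, without overlap. It fell by 2.77 ± 0.89 on the log2 scale (adjusted p = 0.0198), and did not pass when any library but the third knockdown library was left out (adjusted p from 0.0594 to 0.188). roX1 was at 266, 671 and 3099 CPM against 4528, 5906 and 5363 CPM. No library of the groups overlapped, but the change of -1.97 ± 0.94 did not pass (adjusted p = 0.169). msl-2 was at 31.2, 43.9 and 175 CPM against 427, 421 and 349 CPM, a change of -2.26 ± 0.86 (adjusted p = 0.0616). mof was at 315, 287 and 1364 CPM against 213, 190.0 and 132 CPM, a change of 1.88 ± 0.88 (adjusted p = 0.158) that was higher in 3 of 3 knockdown libraries. msl-1, msl-3 and mle overlapped between the groups and did not pass.

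The nuclear calls depended on the scale. With TMM scaling on the fly genes all 7 members passed, where 2769 of 9295 genes tested passed as higher and 2857 as lower. Higher were mof (2.09, adjusted p = 2.41e-06), msl-1 (0.84) and msl-3 (0.91), the last pair being lower with the spike-in when the third knockdown library was left out (-0.41 and -0.23). On the same TMM scale msl-2 (-2.09, adjusted p = 4.46e-06), roX1 (-1.99, adjusted p = 0.00086), roX2 and mle (-0.54) were lower. There the knockdown libraries were at 545, 459 and 579 CPM of mof against 134, 124 and 113 CPM, and at 53.8, 70.2 and 74.1 CPM of msl-2 against 269, 275 and 300.0 CPM. The median change of all genes was -0.29 with the spike-in (327 higher and 921 lower) and -0.01 with TMM. Without the third knockdown library, 5 of 7 members passed on the spike-in scale. There mof was higher (0.76) and msl-2 (-3.41), roX1 (-3.49), mle (-1.81) and roX2 were lower. The share of all genes that passed in that fit was not worked out, so this count has no background beside it.

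**Figure D2:**
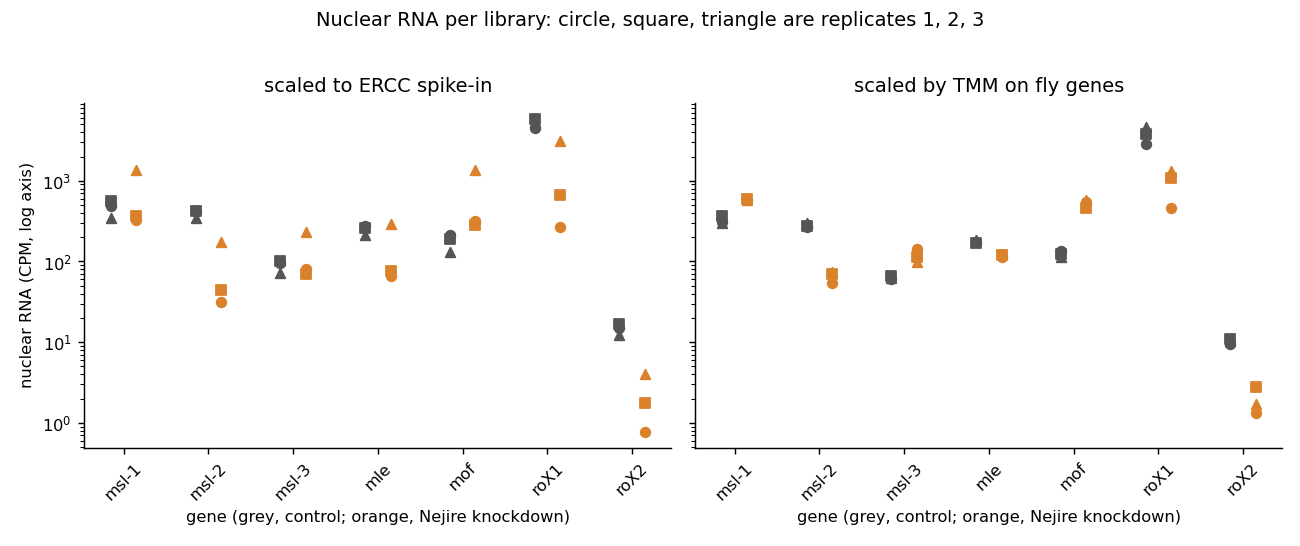
Level of each gene (CPM, log axis) in the 6 nuclear RNA libraries, scaled to the spike-in (left) or by TMM on fly genes (right). Grey points are controls, orange points Nejire knockdown, and the symbol gives the replicate. The third knockdown library stands above the others on the left and joins them on the right, while msl-2, roX1 and roX2 are lower and mof higher in the knockdown on both scales.

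Ratios between members within a library do not depend on the scaling. In nuclear controls roX1 had 21.2, 31.1 and 40.6 counts per count of mof, and in nuclear Nejire knockdown 0.842, 2.34 and 2.27. In total RNA at stage 5 the same ratio was 4.34, 4.04 and 4.08 in controls and 3.52, 1.55 and 1.82 in Nejire knockdown. The ratio was lower in every knockdown library in both kinds of RNA. For msl-2 per count of msl-1, nuclear controls had 0.881, 0.748 and 0.999, and the nuclear knockdown libraries had 0.0941, 0.118 and 0.129. In total RNA it was 0.232, 0.345 and 0.327 in controls and 0.0947, 0.0722 and 0.0999 in Nejire knockdown. With 3 libraries against 3 an exact permutation test cannot give a two-sided p below 0.1, so these ratios were not tested. Such a ratio shows unequal change, not which of the pair changed.

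**Figure D3:**
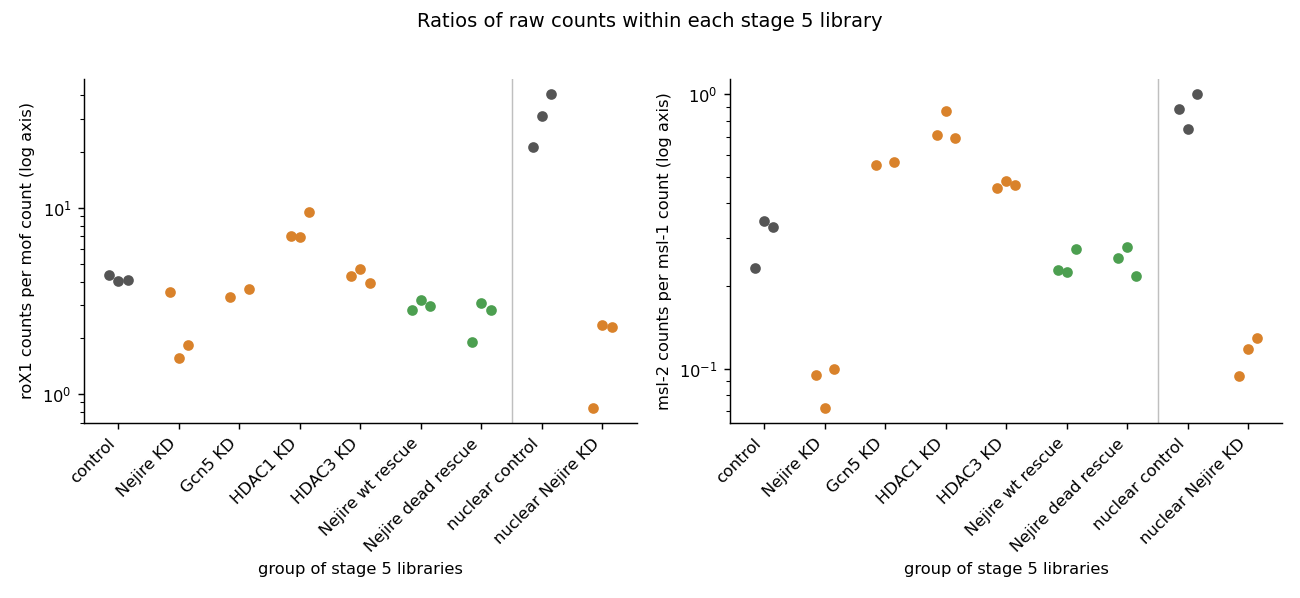
Counts of roX1 per count of mof (left) and of msl-2 per count of msl-1 (right) in each stage 5 library, both on log axes, with nuclear RNA right of the line. Each point is a library. Nejire knockdown lies below its controls in both kinds of RNA, with msl-2 per msl-1 at 0.0722 to 0.0999 in total and 0.0941 to 0.129 in nuclear RNA.

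Of the other genes in nuclear RNA, Sxl fell (-3.36 ± 0.96, adjusted p = 0.00564), from 1367 to 133 CPM on the spike-in scale, and the other regulators, the 8 partners and the 8 NSL genes did not pass. Of the stage 5 markers 5 of 6 fell, the exception being kni (-2.05, adjusted p = 0.0947), and none of 4 maternal markers passed. Their part in the members' changes was not tested.

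The rescues compared wild type with catalytic dead protein of Nejire or of Gcn5 in embryos with the knockdown. No member passed in either, 0 of 7 beside 0.258% of 8139 genes for Nejire (wild type minus catalytic dead) and 0 of 7 beside 0% of 8140 genes for Gcn5 (edgeR's quasi-likelihood test). At an unadjusted p under 0.05 edgeR's test gave 1 of 7 members (msl-1) for Nejire, beside 1222 of 8139 genes, and 0 of 7 for Gcn5. DESeq2 called 0 members in both. For Gcn5 only 17 of 8140 genes had an unadjusted p under 0.05 by edgeR's test, far below the share of 0.05 that no change would give. That test could therefore hardly call any gene. msl-2 was at 147, 152 and 167 CPM with wild type Nejire and at 147, 155 and 128 CPM with catalytic dead Nejire, a change of 0.10 ± 0.09 (adjusted p = 0.586). roX1 was at 1332, 1544 and 1497 CPM against 1061, 1455 and 1416 CPM (0.14 ± 0.11, adjusted p = 0.549). These levels lay near those of the main stage 5 controls and above every Nejire knockdown library for msl-2, and the rescue groups have no control of their own. The strength of the knockdown in rescue embryos was not checked, so a need for the enzyme's activity was not tested. In the Gcn5 pair msl-1 was at 539.9, 471 and 430.1 CPM against 503, 526 and 425 CPM (-0.03 ± 0.13, adjusted p = 1). mof was at 473, 484 and 508 CPM with wild type and 557, 476 and 505 CPM with catalytic dead Nejire, and at 529.6, 607 and 589 CPM and 507, 547 and 509 CPM in the Gcn5 pair. All of these exceed the 253 to 326 CPM of the 7 stage 5 control libraries, which come from other crosses and sets. The marker sums of the rescue libraries also stood apart, at 246.5 to 513 CPM of maternal and 807 to 1453 CPM of stage 5 markers, against 76.5 to 281 and 728 to 949.8 CPM in those controls, and their part in the levels of mof was not tested. Sxl changed by 0.46 ± 0.17 (adjusted p = 0.179) between the Nejire rescues and by -0.36 ± 0.21 (adjusted p = 1) between the Gcn5 rescues, and 0 of the 21 listed genes passed, with 5 and 0 of them at an unadjusted p under 0.05.

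Knockdown of Gcn5, the acetyltransferase of the SAGA and ATAC complexes, was compared with the same stage 5 controls (2 libraries against 3). msl-1 and msl-3 fell and mof rose, 3 of 7 members, beside 51.7% of 8236 genes. Of the 6 stage 5 markers 3 fell as well, with sums of 535 to 594 CPM against 728 to 866 CPM in controls, and their part in the members' changes was not tested. msl-1 was at 232 and 182 CPM against 569.7, 512 and 427 CPM, without overlap. It fell by 1.23 ± 0.24 on the log2 scale (adjusted p = 7.9e-06), and by 1.08 to 1.39 under the 11 alternatives run, among them scaling to stable genes, which moved the median of all genes by 0.125. msl-3 was at 66.2 and 58.8 CPM against 106, 102 and 109.9 CPM and fell by 0.69 ± 0.16 (adjusted p = 0.00011). mof was at 393 and 378 CPM against 282, 326 and 281 CPM and rose by 0.44 ± 0.13 (adjusted p = 0.00295). msl-2, at 128 and 102 CPM, lay below all controls and changed by -0.32 ± 0.17 (adjusted p = 0.0921), which passed with no filter on low counts (adjusted p = 0.0468) and without control replicate 1 (0.048). mle, roX1 and roX2 did not pass, with roX1 at 1297 and 1387 CPM.

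The listed partners moved in Gcn5 knockdown at stage 5 with 7 of 8 lower and 0 higher. Clamp fell by 1.41 ± 0.24 (adjusted p = 5.78e-07) and Su(var)3-7, a heterochromatin protein, by 1.07 ± 0.22 (adjusted p = 2.61e-05). Of the NSL genes 6 fell and 1 rose, with Rcd1 (-0.72) and dgt1 (-0.74) at the lowest adjusted p. Of the regulators Unr, which acts with Sxl on msl-2 translation, fell by 1.51 ± 0.35 (adjusted p = 0.00011) and how rose by 0.34, while Sxl changed by 0.42 ± 0.35 (adjusted p = 0.305). The medians of the partners, NSL genes and regulators were -0.85, -0.40 and 0.23, beside 0.08 for all genes.

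In knockdown of HDAC1 (also known as Rpd3) at stage 5, 3 of 7 members changed, all of them lower, beside 56% of 8236 genes that changed in either direction (28.5% lower). msl-1 was at 228, 197 and 185 CPM against 569.7, 512 and 427 CPM and fell by 1.32 ± 0.23 (adjusted p = 3.71e-07). mof was at 188, 190.0 and 169 CPM against 282, 326 and 281 CPM. All 3 libraries lay below every other stage 5 library of total RNA, and mof fell by 0.71 ± 0.15 (adjusted p = 1.3e-05). msl-3 was at 77.8, 91.7 and 78.6 CPM and fell by 0.37 ± 0.12 (adjusted p = 0.00526), which did not pass with scaling to stable genes (-0.19, adjusted p = 0.117), a scaling that moved the median of all genes by 0.175 and the genes called from 2264 higher and 2346 lower to 3000 higher and 1838 lower. msl-2 (161, 171 and 128 CPM, 0.02 ± 0.14), mle (0.07 ± 0.11) and roX1 (1326, 1315 and 1603 CPM, 0.19 ± 0.19) did not pass. roX2 was at 1.25, 1.69 and 0 CPM, with 17, 7 and 0 counts (-1.36 ± 0.70, adjusted p = 0.0862).

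All 8 partners passed in HDAC1 knockdown at stage 5, 7 lower and 1 higher, led by Clamp (-1.65 ± 0.25, adjusted p = 1.17e-08) and Set2 (-1.78 ± 0.32, adjusted p = 3.7e-07), the methyltransferase of the histone mark that MSL3 binds. Of the NSL genes 6 fell and 1 rose, led by Rcd1 (-1.09) and pzg (-0.60). Unr fell by 0.95 ± 0.27 and how rose by 0.46 ± 0.14, and 2 regulators rose in all. Sxl changed by -0.10 ± 0.31 (adjusted p = 0.798). The partners' median was -0.78 beside 0.03 for all genes.

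Knockdown of HDAC3 at stage 5 changed 2 of 7 members, beside 34.8% of 8236 genes, with the reservation that its target had no counts. msl-1 was at 327, 277 and 362 CPM and fell by 0.65 ± 0.17 (adjusted p = 0.00122). msl-3 was at 81.5, 80.0 and 86.2 CPM and fell by 0.36 ± 0.12 (adjusted p = 0.0122), which did not pass without HDAC3 knockdown replicate 2 (adjusted p = 0.061) or with no filter on low counts (0.0764). mof (333, 328 and 344 CPM) lay above all 3 controls but changed by 0.17 ± 0.11 (adjusted p = 0.2). msl-2, mle, roX1 and roX2 did not pass. Of the partners 4 fell, led by Clamp (-0.72) and Su(var)3-7 (-0.62), of the NSL genes 4 fell, led by dgt1 (-0.59) and Rcd1 (-0.43), and of the regulators Unr fell (-0.77). Sxl changed by -0.04 ± 0.31 (adjusted p = 0.935).

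In Gcn5, HDAC1 and HDAC3 knockdown at stage 5 the sum of the maternal markers was lower, as were msl-1 and msl-3. Of the 4 markers 3 fell and 1 rose in Gcn5 knockdown, 4 fell in HDAC1 knockdown and 3 fell in HDAC3 knockdown. The 4 maternal markers summed to 130.2 to 137 CPM in Gcn5, 78.1 to 96.1 CPM in HDAC1 and 94.2 to 139.9 CPM in HDAC3 knockdown, against 176 to 281 CPM in main controls. The part of this in the changes of msl-1 and msl-3 was not tested. In the 4 batch1 control libraries, a separate set, maternal markers were at 76.5 to 121.5 CPM, below both Gcn5 knockdown libraries. There msl-1 was at 276 to 321 CPM, above Gcn5 and HDAC1 knockdown (182 to 232 CPM) and overlapping HDAC3 knockdown (277 to 362 CPM). The same controls held 67.6 to 87.7 CPM of msl-3, overlapping HDAC1 and HDAC3 knockdown (77.8 to 91.7 CPM). msl-3 in Gcn5 knockdown (66.2 and 58.8 CPM) was below all 4. mof in HDAC1 knockdown was below all 7 control libraries of either set. These knockdowns were not tested against the batch1 controls, in which msl-1 and msl-3 were already lower than in main controls.

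In batch1 the knockdowns of Enok, the acetyltransferase of the fly MOZ-like complex, and of HDAC6, a mostly cytoplasmic deacetylase, changed 1 member each at stage 5. In both it was mof, beside 3.96% of 8162 genes for Enok and 1.42% for HDAC6. mof was at 465 and 443 CPM in Enok and at 473 and 462 CPM in HDAC6 knockdown, against 313, 285, 253 and 260.3 CPM in controls. Every knockdown library lay above every control, by 0.72 ± 0.17 (adjusted p = 0.00377) and 0.75 ± 0.17 (adjusted p = 0.00476). Both comparisons used the same controls. For Enok the call was lost when either knockdown library was left out (adjusted p = 0.0623 and 0.0559). roX2 was at 2.45 and 1.18 CPM in HDAC6 knockdown against 6.16, 3.85, 8.10 and 5.86 CPM, without overlap, and changed by -1.80 ± 0.56 (adjusted p = 0.0668). That change passed with DESeq2 (adjusted p = 0.00633), with no filter on low counts (0.000442) and without HDAC6 knockdown replicate 1 (0.0177), and rests on 19 and 15 counts in the knockdown. msl-1, msl-2, msl-3, mle and roX1 did not pass in either, with roX1 at 1695 and 1713 CPM (Enok) and 1729 and 2034 CPM (HDAC6). Of the 21 listed genes 0 passed in either knockdown. By edgeR's test 4 (Enok) and 3 (HDAC6) of them had an unadjusted p under 0.05, beside 1753 and 1242 of 8162 genes. Sxl changed by -0.07 ± 0.13 (adjusted p = 0.806) and -0.17 ± 0.14 (adjusted p = 0.582).

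**Figure D4:**
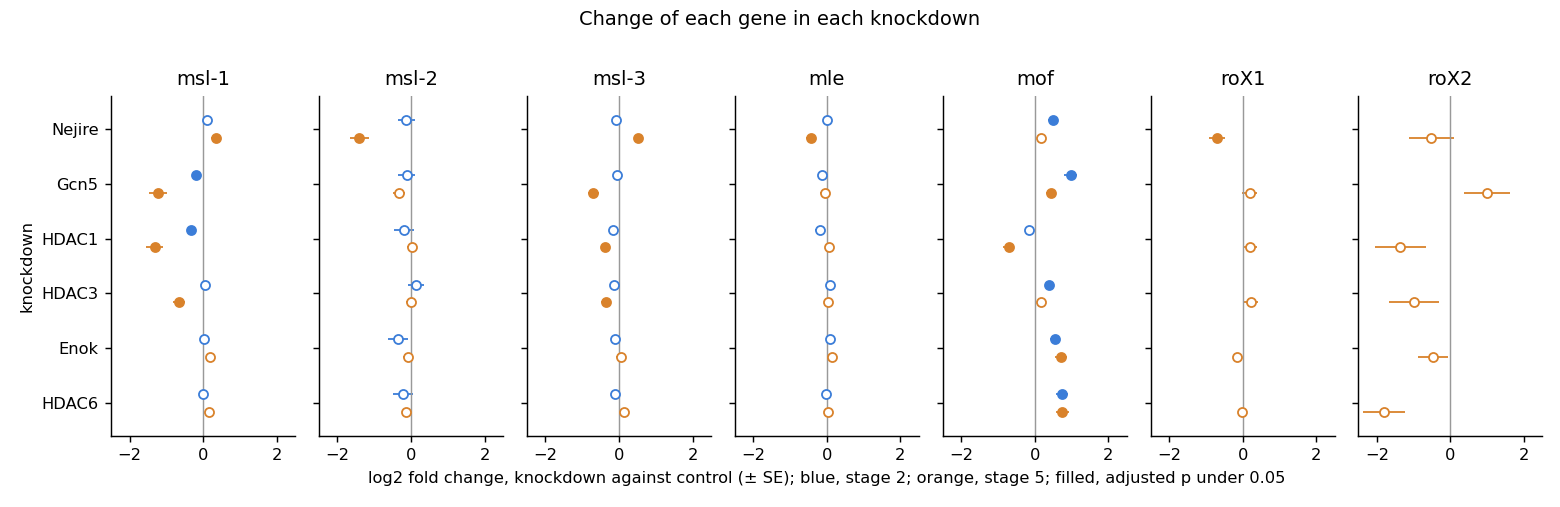
Log2 fold change of each gene (horizontal axis, ± SE) in each of the 6 knockdowns, at stage 2 (blue) and stage 5 (orange). Filled points passed at an adjusted p under 0.05, and roX1 and roX2 were not tested at stage 2. mof is higher in 5 of 6 knockdowns at stage 2, and msl-2 stands out in Nejire knockdown at stage 5 (-1.40).

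Stage 2 embryos carry RNA made by the mother, so that these comparisons read the RNA supplied to the egg. There the changes of the members centred on mof. Both roX genes were too low to be tested, and mof was higher in 5 of 6 knockdowns. mof was at 183, 203 and 182 CPM in main controls and at 206, 213 and 184 CPM in batch1 controls. In order of their means the knockdowns were HDAC1 (151, 174 and 153 CPM), HDAC3 (268, 235 and 233 CPM), Nejire (268, 304 and 223 CPM), Enok (309 and 273 CPM), HDAC6 (355 and 306 CPM) and Gcn5 (377, 359 and 340.4 CPM). Neighbours in this order from HDAC3 to Gcn5 overlapped, and all libraries of these 5 groups lay above all 6 control libraries.

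mof rose in Gcn5 knockdown by 0.98 ± 0.18 (adjusted p = 1.07e-06), and by 0.94 to 1.01 under the 12 alternatives run. It rose by 0.73 ± 0.16 (adjusted p = 0.00126) in HDAC6, by 0.55 ± 0.14 (adjusted p = 0.00421) in Enok, by 0.49 ± 0.13 (adjusted p = 0.00278) in Nejire and by 0.38 ± 0.12 (adjusted p = 0.00943) in HDAC3 knockdown. In HDAC1 knockdown it changed by -0.15 ± 0.10 (adjusted p = 0.315). The Nejire call was lost when only its 2 groups were fitted (adjusted p = 0.053), and the HDAC3 call without knockdown replicate 1 (adjusted p = 0.0548). Comparisons within a set share their controls, so they are not independent of each other, and the control line differs from every knockdown line.

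The other members changed little at stage 2. In Nejire knockdown 1 of 5 members tested passed, beside 10.1% of 6916 genes. In Gcn5 knockdown 2 of 5 passed, mof and msl-1, beside 36.9%. msl-1 was at 464, 419.9 and 393 CPM against 503, 532 and 498 CPM, a fall of 0.21 ± 0.09 on the log2 scale at the threshold (adjusted p = 0.0425), and it did not pass when any of 5 of the 6 libraries was left out. Of the maternal markers bcd and nanos fell there too, with sums over all 4 of 6637 to 6828 CPM against 6955 to 7737 CPM, and their part was not tested. In HDAC1 knockdown 1 of 5 passed, beside 15.9%. It was msl-1, at 383, 365 and 401 CPM, which fell by 0.33 ± 0.10 (adjusted p = 0.00951) and did not pass without knockdown replicate 2 (adjusted p = 0.0715). The maternal marker dhd also fell there, by 1.15 ± 0.20 (adjusted p = 3.06e-06), and its part in the change of msl-1 was not tested. In HDAC3 knockdown 1 of 5 passed, beside 17.6%. In batch1, 1 of 5 passed in Enok knockdown, beside 5.34% of 6702 genes, and 1 of 5 in HDAC6 knockdown, beside 3.16%. msl-2, msl-3 and mle did not pass in any of the 6 knockdowns at stage 2, with msl-2 between 3.66 and 7.81 CPM in every library.

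Of the 21 other pathway genes 10 passed in Gcn5 knockdown at stage 2, where 36.9% of all genes did. There 1 of 5 regulators rose (how, 0.25), 4 of 8 partners fell, led by Top2 (-0.35) and Mgtor (-0.43), and of the NSL genes 2 rose and 3 fell, led by pzg (-0.41) and Chro (0.36). In HDAC1 knockdown pAbp rose (0.32), Mgtor fell (-0.33) and pzg (-0.30) and Chro (-0.23) fell. In HDAC3 knockdown Sxl (0.31 ± 0.11, adjusted p = 0.0273) and wds (0.26) rose. Of 21 listed genes 0 passed in Nejire, Enok or HDAC6 knockdown, with 5, 1 and 1 at an unadjusted p under 0.05 by edgeR's test. Among all genes these were 1581 of 6916 for Nejire, and 1085 and 891 of 6702 for Enok and HDAC6. Sxl changed by -0.01 in Nejire, -0.05 in HDAC1, 0.19 in Enok and 0.06 in HDAC6 knockdown, none of which passed, and in Gcn5 knockdown its adjusted p was 0.997.

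Whether a knockdown acted differently at the stages was tested for the main set as an interaction. Both roX genes entered this fit through their stage 5 counts and had too few counts at stage 2 for a difference to be estimated. The counts out of 7 below nevertheless include them. For Nejire 4 of 7 members passed, roX1 among them, beside 20.1% of 8675 genes. Besides msl-2, msl-3 (0.60 ± 0.15, adjusted p = 0.000934) and mle (-0.45 ± 0.17, adjusted p = 0.0362) differed between stages, mle with a call lost without any of 8 libraries. The value for roX1 (-6.97) rests on 77 counts in Nejire knockdown replicate 1 at stage 2, where the other libraries of that comparison at stage 2 had 0 or 1 count. It was 0.80 (adjusted p = 0.823) without that library and is not interpretable. That library also held 11 counts over the 6 stage 5 markers, where other stage 2 libraries held 0 to 4. For Gcn5 3 of 7 passed, beside 32%, with msl-1 (-1.02 ± 0.21, adjusted p = 2.47e-05), msl-3 (-0.65 ± 0.16, adjusted p = 0.000383) and mof (-0.54 ± 0.17, adjusted p = 0.00653) lower at stage 5 relative to stage 2. For HDAC1 2 of 7 passed, beside 37.4%, with msl-1 (-0.90 ± 0.20, adjusted p = 3.59e-05) and mof (-0.46 ± 0.16, adjusted p = 0.0124). The mof calls of Gcn5 and HDAC1 did not pass with no filter on low counts (adjusted p = 0.124 and 0.142), and that of HDAC1 not without HDAC1 knockdown replicate 2 at stage 2 (0.0527). For HDAC3 1 of 7 passed, beside 22.8%, namely msl-1 (-0.70 ± 0.18, adjusted p = 0.00174). No such fit was made for Enok and HDAC6.

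Of the other pathway genes, Sxl differed between the stages in Nejire knockdown (-2.38 ± 0.46, adjusted p = 1.32e-05) and did not pass in Gcn5 (0.42), HDAC1 (0.04) or HDAC3 (-0.33) knockdown. Clamp passed in all 4, with a value of 0.50 for Nejire and of -1.23, -1.42 and -0.77 for Gcn5, HDAC1 and HDAC3. In the Nejire interaction 1 partner was higher and 2 were lower, of the NSL genes 1 was higher and 1 lower, and 2 regulators were lower. In that of Gcn5 4 partners, 3 NSL genes and 1 regulator were lower. In that of HDAC1 1 partner, 1 NSL gene and 1 regulator were higher and 4 partners and 1 NSL gene lower, and in that of HDAC3 3 partners and 2 NSL genes were lower.

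The genes whose level followed each member most closely over the 12 stage 5 groups of total RNA were found by Pearson correlation of log2(mean CPM + 1) among 4617 genes. For msl-1 they were dah (0.988), Usp7 (0.987) and gish (0.983), and for msl-2 kuk (0.974), Pcl (0.969) and sog (0.964). msl-3 was followed by Gclm (0.966), dgt1 (0.961) and dgt6 (0.924), mle by lute (0.974), RnpS1 (0.973) and CycT (0.971), and mof by wds (0.949), TFAM (0.914) and Chi (0.905). dgt1 and wds are subunits of the NSL complex. roX1 was followed by da (0.966), srp (0.961) and sktl (0.954), and roX2, whose counts are few, by CaMKI (0.714), Mef2 (0.711) and Sin1 (0.682). Among the members the highest correlation was that of msl-2 with roX1 (0.918) and the lowest that of msl-3 with roX1 (-0.755). These are descriptions over group means that share sets, controls and embryo age, and carry no test.

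The complex acts on the X chromosome, so the median change of X-linked genes was set beside that of autosomal genes. Between the stages in controls it was -0.03 for 1283 X-linked and 0.18 for 6013 autosomal genes in the main set, and -0.09 and 0.33 in batch1. In Nejire knockdown at stage 5, where msl-2 and roX1 were lower, it was 0.06 on X and 0.00 on autosomes. In nuclear RNA of that knockdown, on the spike-in scale, it was -0.16 on X and -0.31 on autosomes. In Gcn5 knockdown it was -0.01 and 0.10, in HDAC1 knockdown -0.10 and 0.06, and in HDAC3 knockdown -0.09 and 0.03. In batch1 at stage 5, where msl-2 and roX1 did not pass, it was 0.036 and -0.004 in Enok and -0.007 and -0.0006 in HDAC6 knockdown. At stage 2 X and autosomes differed by less than 0.02 in every knockdown. These medians are descriptions without a test, and embryos were not separated by sex.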

How the data were processed

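Gene counts of total RNA and of nuclear RNA were used as the authors deposited them, whole numbers per gene and library. Base calling with bcl2fastq 2.20.0.422 and the genome build dm6 are named per the submitters' processing notes, and libraries were made by tagmentation per the labels' protocols. The aligner, the counter, the annotation and the use of strand were not given in the sources used here. Of 17753 gene identifiers, 17626 (99.28%) matched Ensembl release 115.

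Samples were grouped by title, which also placed 1 HDAC6 library whose other fields give stage 2. Counts were fitted with edgeR 4.0.16 (limma 3.58.1, R 4.3.3), quasi-likelihood F-test, TMM scaling (nuclear RNA scaled to ERCC counts) and filterByExpr (minimum count 10, total 15). All groups of a set and stage shared 1 estimate of spread. P-values were adjusted over all genes tested (Benjamini-Hochberg, threshold 0.05), and a standard error is the size of a log2 fold change over the normal deviate that its p corresponds to. Such a standard error tends to be larger for a larger change, so it is not a direct measure of the spread between libraries. The p-values rest only on the spread between these samples, which may be technical, since no label says that replicates came from separate cages or crosses. Intervals and floors cover counting error only. The scripts were tested on simulated data. Levels per library share 1 TMM scale for total RNA, and means of listed genes by the scale of their own comparison.

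Alternatives were DESeq2 1.42.0, RLE size factors, scaling to genes stable between stages in the other control set (change under 0.5 log2, at least 5 CPM, 1941 and 1553 genes), no filter, the compared groups alone, TMM on fly genes for nuclear RNA, a replicate block and leaving out each library. Replicate numbers recur in the groups, but in no set were the deviations of every same-numbered pair of libraries correlated above 0.1. The numbers were therefore not taken to pair samples. The median of same-numbered pairs was still 0.449 in the Gcn5 rescues, against 0.13 for other pairs. Among batch1 stage 2 groups it was 0.129 against -0.128, so a shared effect of the replicate number is not excluded there. The members and gene lists were chosen with earlier results of these data known. All members were named, and of each list up to 2 called genes of lowest adjusted p in each comparison, plus Sxl. Genes of like pattern are the 3 of highest correlation with a mean of at least 5 CPM.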

Additional observations from a re-analysis of the deposited data

Results flagged for a closer look

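In all, 10 effects differed between stage 2 and stage 5 in the test of the difference itself, each value being the log2 effect at stage 5 minus that at stage 2. In Nejire knockdown these were msl-2 (-1.28), msl-3 (0.60), mle (-0.45) and roX1 (-6.97). The roX1 value rests on 77 counts in the first stage 2 knockdown library and was 0.80 without it. In Gcn5 knockdown they were msl-1 (-1.02), msl-3 (-0.65) and mof (-0.54), in HDAC1 knockdown msl-1 (-0.90) and mof (-0.46), and in HDAC3 knockdown msl-1 (-0.70). mof in Gcn5 knockdown was higher than in controls at both stages, and the difference is in the size of the rise.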

How the results depend on the processing

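Of 262 counts of members called under an alternative, 234 stayed within 1.5 times the reported count and 28 did not. With no filter on low counts, 2 members were called in Nejire knockdown at stage 2, 1 in HDAC3 knockdown at stage 5 and 2 in HDAC6 knockdown at stage 5. DESeq2 called 2 in HDAC6 knockdown at stage 5 and 3 in nuclear RNA, where TMM on fly genes called 7. With only the compared groups fitted, Nejire knockdown at stage 2 had 0 called. With a replicate block edgeR's test gave 0 called members in Enok and HDAC6 knockdown at stage 5 (mof 0.62, adjusted p = 0.0701, and 0.65, adjusted p = 0.109). It also gave 0 in nuclear RNA (roX2 -3.04, adjusted p = 0.1). Same-number correlations ran from -0.189 to 0.0257 among batch1 stage 5 libraries and from -0.112 to 0.325 in nuclear RNA. In nuclear RNA their median was 0.304, against -0.174 for other pairs. Leaving out 1 library gave counts from 1 to 2 (Gcn5, stage 2), 0 to 1 (HDAC1, stage 2), 1 to 2 (HDAC3, stage 5), 0 to 1 (HDAC3, stage 2), 0 to 1 (Enok, stage 5), 1 to 2 (HDAC6, stage 5), 0 to 5 (nuclear RNA) and 2 to 5 (Nejire interaction). Of 1690 values of single members, 39 lost and 29 gained a call and 1 changed sign with its call, roX1 in the Nejire interaction without the first stage 2 knockdown library (0.80, adjusted p = 0.823), whose value was as low as -8.42 without another library. Scaling to stable genes moved the genes called from 68 higher and 48 lower to 40 and 47 in HDAC6 knockdown at stage 5, and from 13 higher and 8 lower to 10 and 13 in the Nejire rescues. Causes were not tested. Depth limits roX2, which had 0 to 189 counts in stage 5 libraries of total RNA, and RLE scaling or plain CPM moved levels set across the stages.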

Other observations

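mof has a neighbour, GAA1, which lies on the same strand of the X chromosome (dm6, X from 5870841 to 5873357) with 483 bases between the genes, and was looked at after the values of mof had been seen. At stage 2 GAA1 rose in Gcn5 (0.70, adjusted p = 1.4e-05), HDAC6 (0.49, adjusted p = 0.00446), Enok (0.37, adjusted p = 0.0163) and Nejire knockdown (0.29, adjusted p = 0.0426) by edgeR's quasi-likelihood test. It did not pass in HDAC3 (0.16, adjusted p = 0.259) or HDAC1 knockdown (0.17, adjusted p = 0.224). At stage 5 GAA1 and mof both rose in Gcn5 knockdown (GAA1 by 1.304, adjusted p = 2.67e-05). GAA1 did not pass in Enok (-0.16, adjusted p = 0.727) or HDAC6 knockdown (-0.21, adjusted p = 0.67), where mof rose. It rose in HDAC1 knockdown (1.20, adjusted p = 1.66e-05), where mof fell. In HDAC3 knockdown it rose (0.60, adjusted p = 0.0156) and in Nejire knockdown it fell (-0.64, adjusted p = 0.0114), where mof did not pass. Usp30, at 147 bases from mof, did not pass in any knockdown at stage 2. At stage 5 it fell in Gcn5 (-0.99), HDAC1 (-0.80) and HDAC3 knockdown (-0.74), rose in Nejire knockdown (0.49), and did not pass in Enok or HDAC6 knockdown. CG16721, at 3016 bases, passed in HDAC3 knockdown only, where it rose at stage 2 (0.36) and stage 5 (0.44).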
